A study of Bos taurus with 18 samples.

Results

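The 5 genes PTX3, TNFAIP6, HAS2, VCAN and CD44 encode proteins that build, crosslink or bind a hyaluronan matrix. They were chosen by name, with earlier results of these data known. Every probe set whose symbol in the platform's annotation is one of these was read on all 18 arrays. They are 5 of 9155 genes with a symbol and 10 of 24016 probe sets. PTX3 and CD44 have 1 probe set each, TNFAIP6 has 2, and HAS2 and VCAN have 3 each. Probe sets of a gene share a target and are not independent of each other.

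Hyaluronan is a long sugar chain made at the cell surface. After the LH surge, cumulus and granulosa cells of mammalian follicles deposit a hyaluronan-rich matrix that lets the cumulus expand around the oocyte. HAS2 makes the chain, TNFAIP6 (TSG-6) transfers heavy chains of inter-alpha-trypsin inhibitor onto it, and the long pentraxin PTX3 binds these heavy chains and crosslinks the matrix. Versican (VCAN) is a large proteoglycan that binds hyaluronan, and CD44 is its main receptor at the cell surface.

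The study has 6 groups of 3 bovine arrays. The dominant preovulatory follicle was taken from cows D, F and G before LH, without GnRH, and 22 h after GnRH, the hormone that sets off the surge, from cows A, B and C. From every follicle, granulosa still attached to the follicle wall (membrane granulosa), granulosa aspirated from the antrum (antral granulosa) and theca, the steroid-making layer outside the granulosa, went on arrays of their own. Replicates are therefore different cows, 1 follicle each, and the time points are different cows too. Breed, age and other treatments are not given in the sources used here.

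Values are log2 signals. The text gives them by cow, in the order D, F, G before LH and A, B, C after. A change is a difference of log2 means ± its standard error, with n = 3 cows a group. Tests were made with limma, p-values were adjusted by Benjamini-Hochberg over 24016 probe sets, and a difference was called at an adjusted p under 0.05. LH effects compare cows, whereas contrasts of cell populations are within cows. The files hold no detection calls. A limit of 4.62 was set so that 8005 probe sets have a lower mean. Where a group stood under it on all 3 arrays, a difference is given as at least the brighter mean less 4.62. Levels of different probe sets are not compared.

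The labelled populations were checked against markers. The summed level of 12 granulosa markers was 16.6 to 16.9 on granulosa arrays before LH and 14.95 to 15.74 after, against 14.78 to 15.64 and 14.04 to 14.42 on theca arrays. The granulosa marker CYP19A1, aromatase, stood at 10.85, 11.82 and 8.21 in theca before LH, against means of 13.73 in membrane and 12.72 in antral granulosa. GATM alone of this list had its highest mean before LH in theca (7.91, against 6.97 and 5.21). The theca marker INSL3 read 14.04, 10.87 and 13.60 in membrane granulosa before LH, and 14.68, 14.84 and 14.83 in theca. How much RNA of another population each array held was not tested. The summed level of 5 of 6 listed theca markers was 14.70 to 15.75 in theca, 11.20 to 14.61 in membrane granulosa and 9.999 to 11.6 in antral granulosa. Fibroblast, smooth muscle, endothelium and leukocyte lists were also highest in theca. In such bulk samples fewer cells of a type and less RNA per cell cannot be told apart.

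**Figure D1:**
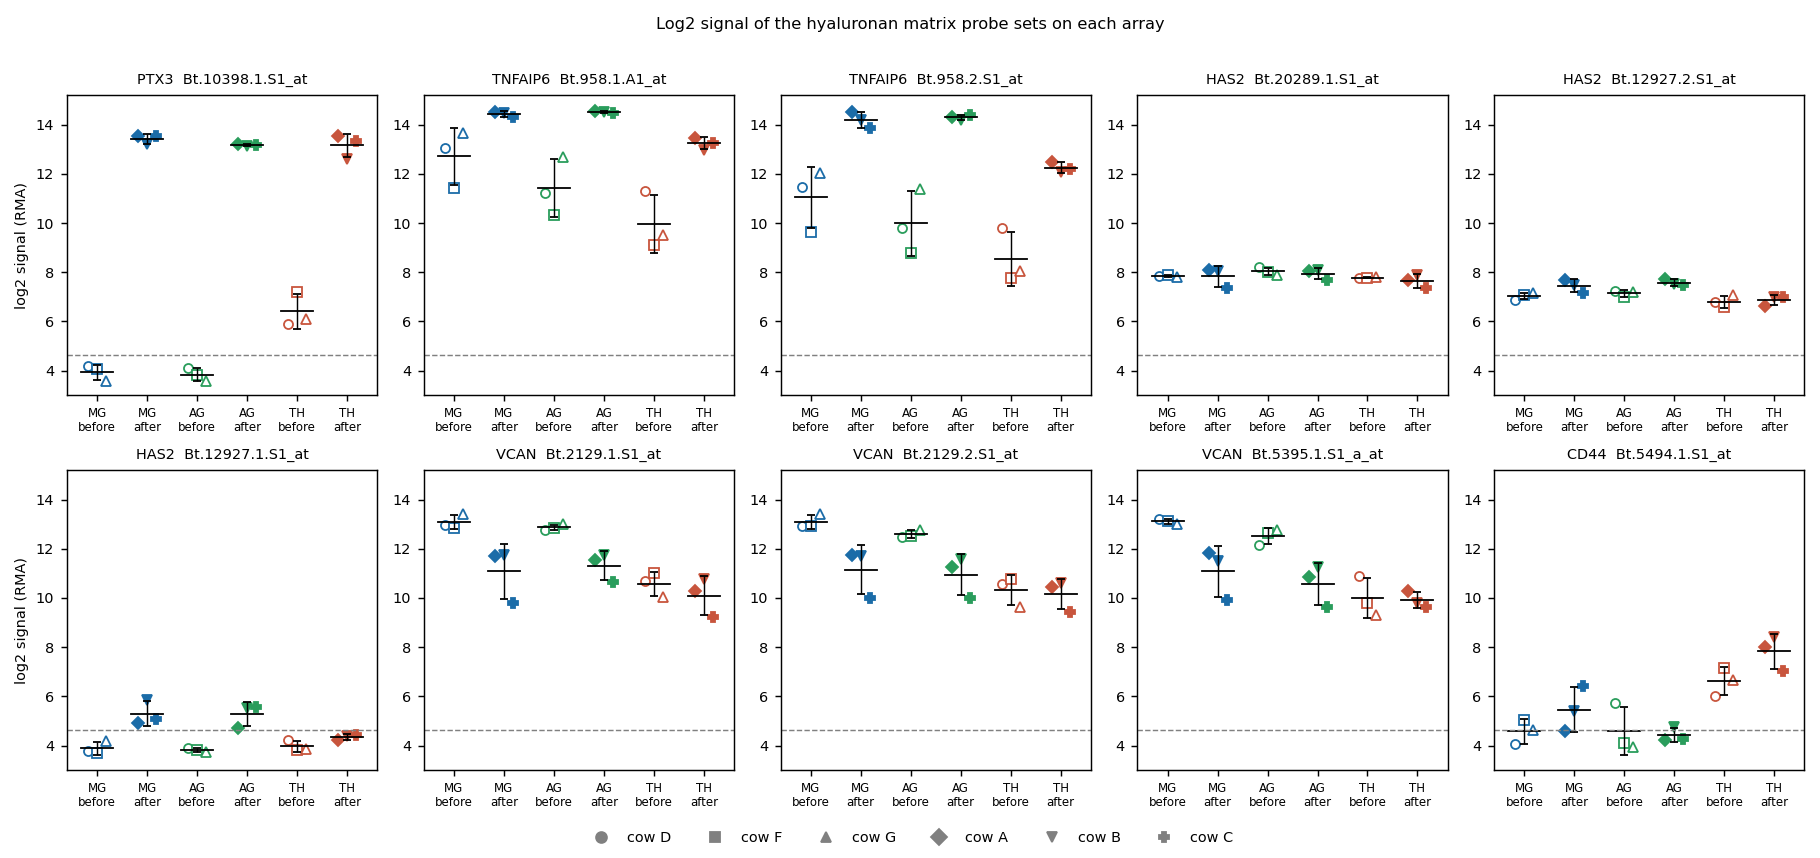
Log2 signal of each of the 10 probe sets on all 18 arrays, by group (MG membrane granulosa, AG antral granulosa, TH theca; before or after LH). Symbols are cows, horizontal lines group means, bars the SD (n = 3), and the dashed line the limit of 4.62. PTX3 lies between 12.62 and 13.52 on all arrays after LH, and VCAN is highest on granulosa arrays before LH.

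After LH, PTX3 and TNFAIP6 were higher in all 3 populations, the latter by 1 of its 2 probe sets in membrane granulosa. The part of granulosa RNA in their theca values was not tested. In both granulosa populations VCAN was lower by its 3 probe sets, and HAS2 was higher by 1 of 3. No LH effect on CD44 was called. In membrane granulosa 3 of the 10 probe sets were called higher and 3 lower, where 10.0% and 10.9% of all probe sets were. In antral granulosa these counts were 4 and 3, against 10.3% and 12.2%, and 4 in all without cow F. In theca 3 were higher and none lower, against 1.79% and 2.12%. At an unadjusted p under 0.05 theca had 4 members, the added gene being CD44, and again none lower, where 15.4% of all probe sets passed that threshold. The arrays before and after LH did not overlap for 8, 8 and 3 of the 10, against 34.5%, 36.7% and 20.4% of all probe sets.

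PTX3 had the largest LH effect of the 5 genes in each population. In membrane granulosa it read 4.17, 4.06 and 3.59 before LH and 13.52, 13.20 and 13.52 after. In antral granulosa it read 4.11, 3.84 and 3.58 before and 13.22, 13.11 and 13.18 after. All granulosa arrays before LH lay under the limit, and those after LH lay between 13.11 and 13.52. The rise was at least 8.79 in membrane granulosa (at least 443-fold, adjusted p = 3.88e-11) and at least 8.55 in antral granulosa (at least 374-fold, adjusted p = 2.10e-11).

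In theca PTX3 was above the limit before LH, at 5.91, 7.20 and 6.10, and reached 13.52, 12.62 and 13.34. It rose by 6.76 ± 0.29 there (108-fold, adjusted p = 7.78e-09). The 3 PTX3 calls held under each of the 13 alternative settings tried, but with larger adjusted p in some. The largest was 0.00110 in membrane granulosa, 9.92e-05 in antral granulosa and 0.0169 in theca. Before LH, theca exceeded membrane granulosa within each cow, by 1.74, 3.14 and 2.51 as measured. With the limit in place of the granulosa level, theca was higher by at least 1.78 than membrane granulosa (adjusted p = 1.51e-05) and antral granulosa (adjusted p = 7.15e-06). Cow F had the highest theca PTX3 before LH and also the highest leukocyte sum (11.26, against 10.53 and 10.55) and endothelium sum there (11.87, against 11.13 and 11.32). The part of these cells in this level was not tested.

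After LH no difference in PTX3 between populations was called. Theca less membrane granulosa was -0.25 ± 0.24 (95% confidence interval -0.78 to 0.27, adjusted p = 0.520), and theca less antral granulosa was -0.01 (-0.54 to 0.52, adjusted p = 0.976). The LH effect in theca was smaller than in membrane granulosa by 2.72 ± 0.34 as fitted, the difference being -2.72 (adjusted p = 0.000492). Against antral granulosa the difference was -2.58 (adjusted p = 0.000406). With granulosa before LH set to the limit these differences are -2.04 and -1.79. PTX3 thus stood apart in theca before LH, whereas after LH the arrays of the 3 populations overlapped. The part of granulosa RNA in the theca values of PTX3 after LH was not tested.

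TNFAIP6 was above the limit in every population before LH and brighter after it. It was dimmest in theca before LH, at 9.80, 7.76 and 8.05 by Bt.958.2.S1_at. Its probe set Bt.958.1.A1_at, the brighter of its pair on average, read 13.04, 11.42 and 13.66 in membrane granulosa before LH and 14.51, 14.46 and 14.30 after. In antral granulosa it read 11.21, 10.35 and 12.68 before and 14.56, 14.51 and 14.49 after. In theca it read 11.30, 9.10 and 9.49 before and 13.47, 12.98 and 13.27 after. The arrays before and after LH did not overlap in any population. Cow F had the lowest TNFAIP6 of the 3 cows before LH in all 3 populations, by both probe sets.

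The TNFAIP6 rise was 3.10 ± 0.61 in antral granulosa (8.60-fold, adjusted p = 0.00145) and 3.27 ± 0.61 in theca (9.66-fold, adjusted p = 0.00558). In membrane granulosa it was 1.72 ± 0.61 (95% interval 0.42 to 3.02) and was not called (adjusted p = 0.0583). Probe set Bt.958.2.S1_at was called in all 3 populations: 3.13 ± 0.64 (adjusted p = 0.00221), 4.31 ± 0.64 (adjusted p = 0.000128) and 3.71 ± 0.64 (adjusted p = 0.00327). Both probe sets moved together over the 18 arrays, with Pearson's r = 0.98 as a description. After LH Bt.958.1.A1_at was among the 10 brightest probe sets of every granulosa array and lay 0.06 to 0.32 under the brightest, and Bt.958.2.S1_at lay 0.16 to 0.78 under it, so their rise in granulosa can be understated. The theca call of Bt.958.1.A1_at ended without cow A (adjusted p = 0.0623), and without cow G the membrane granulosa value was 2.20 and was called (adjusted p = 0.0173).

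Before LH, TNFAIP6 was lower in theca than in membrane granulosa, the within-cow differences being -1.73, -2.32 and -4.16 in cows D, F and G. Their fit gave -2.74 ± 0.42 (adjusted p = 0.000306), and -2.51 ± 0.44 by Bt.958.2.S1_at (adjusted p = 0.000724). Theca less antral granulosa was -1.45 ± 0.42 (adjusted p = 0.0172), with 0.09 in cow D and -3.19 in cow G. That call ended without cow F (adjusted p = 0.0650) and without cow G, where the value was -0.58 (adjusted p = 0.127), and likewise for Bt.958.2.S1_at (adjusted p = 0.0534 and 0.155). Without the cow block neither was called (adjusted p = 0.0864 and 0.103).

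After LH, TNFAIP6 in theca less membrane granulosa was -1.05, -1.48 and -1.03 in cows A, B and C, a difference of -1.19 ± 0.42 that was not called (95% interval -2.10 to -0.27, adjusted p = 0.0569). It was called under 5 of 11 alternatives, among them without cow D (adjusted p = 0.0166) and without cow G (adjusted p = 0.00281). Bt.958.2.S1_at called it (-1.93 ± 0.44, adjusted p = 0.00643), except without cow A (adjusted p = 0.0666) or cow B (adjusted p = 0.0752). Theca was also under antral granulosa after LH, at -1.28 ± 0.42 (adjusted p = 0.0315) and at -2.04 ± 0.44 with Bt.958.2.S1_at (adjusted p = 0.00312). The call of Bt.958.1.A1_at ended without any 1 of cows A, B or C (adjusted p = 0.113, 0.175 and 0.0964), and without the cow block (adjusted p = 0.131). No difference in the LH effect on TNFAIP6 between populations was called. For theca less membrane granulosa it was 1.55 (95% interval 0.26 to 2.85, adjusted p = 0.140), called without cow D (2.05, adjusted p = 0.0273), and 0.58 (-0.76 to 1.92) by Bt.958.2.S1_at. For theca less antral granulosa it was 0.17 (-1.13 to 1.46) and -0.60 (-1.94 to 0.74), the latter called without cow G (-1.54, adjusted p = 0.0125). Where the granulosa rise is understated near the brightest values, theca less granulosa comes out too high in these differences. After LH the summed level of the granulosa markers was 14.04 to 14.42 in theca, against 14.95 to 15.74 in membrane granulosa. The part of granulosa RNA in the theca values of TNFAIP6 was not tested.

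The 3 probe sets of HAS2, the synthase, did not give the same reading. Bt.12927.1.S1_at, designed from the RefSeq messenger RNA, rose in granulosa. In membrane granulosa it read 3.77, 3.69 and 4.20 before LH and 4.94, 5.87 and 5.08 after, and in antral granulosa 3.89, 3.83 and 3.76 before and 4.70, 5.55 and 5.58 after. In theca it read 4.23, 3.82 and 3.86 before and 4.23, 4.37 and 4.45 after. All theca arrays and all granulosa arrays before LH lay under the limit, and all granulosa arrays after LH lay above it.

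By this probe set HAS2 rose by at least 0.67 in membrane granulosa (adjusted p = 0.000714) and by at least 0.65 in antral granulosa (adjusted p = 0.000480). In theca both groups were under the limit and no size is given (adjusted p = 0.540). After LH, HAS2 was lower in theca than in membrane granulosa by at least 0.67 (adjusted p = 0.00462) and than in antral granulosa by at least 0.65 (adjusted p = 0.00348). The contrast with membrane granulosa ended without cow B (adjusted p = 0.0925). The LH effect on HAS2 in theca less that in membrane granulosa was -1.03 as fitted (adjusted p = 0.0422), and less that in antral granulosa -1.07 (adjusted p = 0.0289), or -0.67 and -0.65 with dim groups at the limit. The former call ended without cow A, B, D or F (adjusted p 0.0767 to 0.200) and the latter with each cow but A left out (adjusted p 0.0572 to 0.0933), and both calls without the cow block (adjusted p = 0.133 and 0.0974).

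Bt.12927.2.S1_at, also of HAS2, read 6.88 to 7.14 in membrane granulosa before LH and 7.17 to 7.70 after, and 6.99 to 7.24 and 7.49 to 7.74 in antral granulosa. The arrays did not overlap in either, but the changes of 0.42 ± 0.16 (95% interval 0.075 to 0.76, adjusted p = 0.0805) and 0.44 ± 0.16 (0.098 to 0.79, adjusted p = 0.0635) were not called. Without cow C the former was 0.56 and called (adjusted p = 0.0309). In theca it changed by 0.07 (95% interval -0.27 to 0.42, adjusted p = 0.902). After LH it was lower in theca, by a difference of -0.57 ± 0.16 from membrane granulosa (adjusted p = 0.0199) and of -0.70 ± 0.16 from antral granulosa (adjusted p = 0.00474). The former call ended without cow A (-0.33, adjusted p = 0.261) or cow B (adjusted p = 0.0967), the latter without cow A (adjusted p = 0.0557).

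Bt.20289.1.S1_at, the brightest HAS2 probe set, stayed between 7.35 and 8.20 on all 18 arrays. Its LH effects were -0.02 (95% interval -0.41 to 0.38), -0.10 (-0.50 to 0.29) and -0.14 (-0.53 to 0.25) in membrane granulosa, antral granulosa and theca, and none was called. Pearson's r with Bt.12927.1.S1_at was -0.0048 over the 18 arrays, and the remaining pairs of HAS2 probe sets gave 0.44 and 0.65. Whether a rise of HAS2 was seen thus depends on the probe set, and the cause was not tested.

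VCAN, the versican gene, was very bright in granulosa before LH and lower after it. Bt.2129.1.S1_at read 12.96, 12.86 and 13.41 in membrane granulosa before LH and 11.71, 11.74 and 9.79 after. In antral granulosa it read 12.78, 12.83 and 12.99 before and 11.56, 11.75 and 10.64 after. In theca it read 10.70, 11.01 and 10.05 before and 10.29, 10.76 and 9.22 after. The granulosa arrays before and after LH did not overlap, and the theca arrays did.

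VCAN changed by -1.998 in membrane granulosa (SE 0.48, adjusted p = 0.00678) and by -1.55 in antral granulosa (SE 0.48, 2.93-fold lower, adjusted p = 0.0287). Bt.2129.2.S1_at fell by 1.93 (adjusted p = 0.00879) and 1.66 (adjusted p = 0.0207), and Bt.5395.1.S1_a_at, designed from the RefSeq messenger RNA, by 2.03 (adjusted p = 0.00712) and 1.94 (adjusted p = 0.00891). The VCAN probe sets followed each other over the 18 arrays at Pearson's r of 0.93 to 0.98. In antral granulosa the call of Bt.2129.1.S1_at ended without any 1 of cows A, D, F or G (adjusted p = 0.0613, 0.0904, 0.0890 and 0.0952). That of Bt.2129.2.S1_at ended without D, F or G (adjusted p = 0.0689, 0.0678 and 0.0717), and that of Bt.5395.1.S1_a_at without F (adjusted p = 0.0528).

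In theca no VCAN change was called. The values were -0.49 (95% interval -1.51 to 0.53, adjusted p = 0.722), -0.16 (-1.18 to 0.87) and -0.09 (-1.13 to 0.96) for the 3 probe sets. The difference in LH effect, theca less membrane granulosa, was 1.50 ± 0.35 (adjusted p = 0.0185), 1.77 ± 0.37 (adjusted p = 0.0103) and 1.94 ± 0.51 (adjusted p = 0.0319). Against antral granulosa it was 1.06 ± 0.35 (0.29 to 1.83, adjusted p = 0.0794, not called), 1.50 ± 0.37 (adjusted p = 0.0198) and 1.85 ± 0.51 (adjusted p = 0.0338). These 5 calls rest on the cow block, without which adjusted p was 0.150 to 0.281. Against membrane granulosa, Bt.2129.1.S1_at also lost its call without cow B, C or G (adjusted p = 0.0781, 0.0562 and 0.0670) and Bt.5395.1.S1_a_at without A, B, C, F or G (0.0505 to 0.120). Against antral granulosa, Bt.2129.2.S1_at lost it without A, B or C (0.0682, 0.0610 and 0.0693) and Bt.5395.1.S1_a_at without A, C, F or G (0.108 to 0.163).

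After LH cow C had the lowest VCAN in all 3 populations and by all 3 probe sets, and the lowest granulosa marker sums (14.95 against 15.69 and 15.74 in membrane granulosa). Before LH cow G had the lowest theca value by all 3 probe sets (10.05, 9.63 and 9.32) and the lowest granulosa marker sum there (14.78, against 15.64 and 15.57). The part of granulosa RNA in the theca values of VCAN was not tested.

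Within cows, VCAN in theca less membrane granulosa was -2.26, -1.85 and -3.36 before LH (cows D, F and G, Bt.2129.1.S1_at). The 3 probe sets gave -2.49 ± 0.25 (adjusted p = 1.67e-05), -2.77 ± 0.26 (adjusted p = 1.20e-05) and -3.11 ± 0.36 (adjusted p = 4.13e-05). Against antral granulosa they gave -2.28, -2.28 and -2.51 (adjusted p = 2.12e-05, 3.11e-05 and 0.000175). These 6 calls held under each of the 11 alternatives tried. After LH the gap to membrane granulosa was -0.986, -0.999 and -1.17 (adjusted p = 0.0117, 0.0142 and 0.0309), and each call ended without cow A (adjusted p = 0.152, 0.156 and 0.228) or cow B (adjusted p = 0.0861, 0.121 and 0.226). Against antral granulosa it was -1.22 (adjusted p = 0.00232), -0.78 (adjusted p = 0.0341) and -0.66 (-1.44 to 0.12, adjusted p = 0.174, not called), and the call of Bt.2129.2.S1_at ended without A, B or C (adjusted p = 0.139, 0.201 and 0.0560). Without the cow block no VCAN difference after LH was called (adjusted p 0.0680 to 0.335).

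CD44, the receptor, was low in granulosa and higher in theca. It read 4.06, 5.06 and 4.62 in membrane granulosa before LH and 4.59, 5.40 and 6.40 after. In antral granulosa it read 5.71, 4.10 and 3.96 before and 4.24, 4.77 and 4.28 after. In theca it read 6.03, 7.16 and 6.66 before and 8.02, 8.42 and 7.04 after. On 7 of the 12 granulosa arrays it lay under the limit of 4.62, so its differences from granulosa are as fitted and can be understated.

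The LH effects on CD44 were 0.89 ± 0.51 in membrane granulosa (95% interval -0.20 to 1.98, adjusted p = 0.262), -0.16 ± 0.51 in antral granulosa (-1.25 to 0.93, adjusted p = 0.878) and 1.21 ± 0.51 in theca (0.12 to 2.31, adjusted p = 0.260). Before and after LH overlapped in all 3. Before LH, CD44 was higher in theca than in membrane granulosa by 1.97, 2.10 and 2.04 in cows D, F and G. This was 2.03 ± 0.54 (4.09-fold, adjusted p = 0.0105), and the difference from antral granulosa was 2.02 ± 0.54 (adjusted p = 0.0106). After LH the differences were 2.36 ± 0.54 (adjusted p = 0.00661) and 3.40 ± 0.54 (10.5-fold, adjusted p = 0.000426). The LH effect in theca less that in membrane granulosa was 0.33 (95% interval -1.32 to 1.98) and less that in antral granulosa 1.37 (-0.28 to 3.02), neither called.

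The CD44 calls before LH ended without cow G (adjusted p = 0.0547 against membrane and 0.0991 against antral granulosa), and the latter also without cow F (adjusted p = 0.118). After LH the call against membrane granulosa ended without cow A (adjusted p = 0.110) or cow B (adjusted p = 0.0955), whereas that against antral granulosa held under each of the 11 alternatives tried. Leukocytes carry much CD44, and the sum of their listed markers was, like CD44, highest in theca. The fibroblast, smooth muscle and endothelium sums were highest in theca too. The summed level of 13 of 14 listed leukocyte markers was 10.53 to 11.26 in theca before LH and 10.95 to 11.50 after. It was 9.53 to 9.72 and 9.33 to 10.48 in membrane granulosa, and 9.03 to 10.46 and 9.54 to 10.05 in antral granulosa. In 4 of the 6 groups the array with the highest CD44 also had the highest leukocyte sum, and in antral granulosa and theca after LH it did not (CD44 highest in cow B, the sum in cows C and A). The membrane array of cow C after LH, with the highest CD44 of its group, also had the highest fibroblast (14.30), smooth muscle (11.78) and endothelium (9.0045) sums there. Single leukocyte markers moved in different directions across LH. The means of the pan-leukocyte marker PTPRC went from 7.89 to 6.75 in membrane granulosa and from 8.37 to 7.71 in theca. Those of CD14 went from 4.33 to 7.03 and from 6.89 to 8.97. By cow (D, F and G), the leukocyte sum before LH was 9.57, 9.72 and 9.53 in membrane granulosa and 10.53, 11.26 and 10.55 in theca. The part of leukocytes in the CD44 values was not tested.

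**Figure D2:**
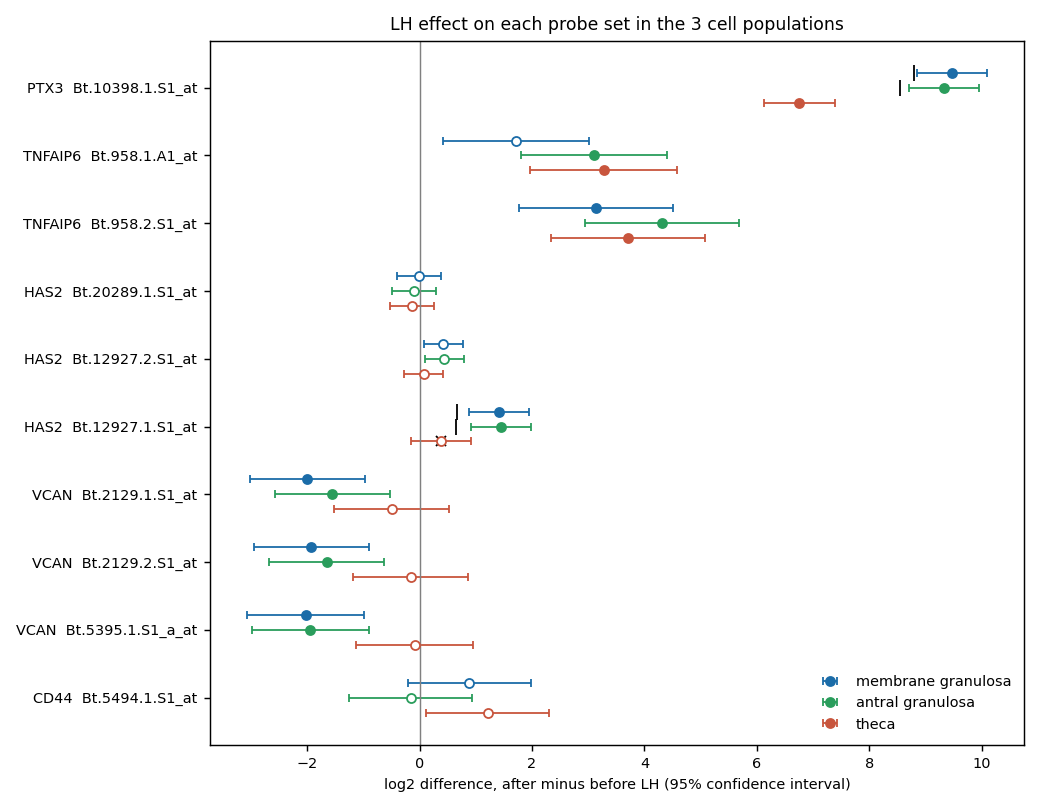
LH effect on each of the 10 probe sets, as the log2 difference after less before LH with its 95% confidence interval, in membrane granulosa, antral granulosa and theca (n = 3 cows a group). Filled points passed the test, short black ticks mark the lower bound where the group before LH lay below 4.62, and a cross marks values with both groups below it. The VCAN intervals lie below 0 in both granulosa populations and span 0 in theca.

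Counted over the members, theca differed from membrane granulosa for 7 of the 10 probe sets before LH (34.3% of all probe sets did) and for 7 after (25.8%). Against antral granulosa the counts were 7 (37.1%) and 7 (36.3%). After LH the count against membrane granulosa was 1 without cow A and 0 without cow B, and against antral granulosa 4 without cow A. Before LH the count against antral granulosa was 4 without cow F or cow G. The difference in LH effect was called for 5 of 10 between theca and membrane granulosa (9.13%) and for 4 between theca and antral granulosa (11.2%). The former count was 2 without cow B and 3 without A, C, F or G, and the latter 1 without cow C and 2 without A, B or F.

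Antral and membrane granulosa were not told apart for any member by limma. The count was 0 of 10 before LH (1.77% of all probe sets were called) and 0 after (3.00%), with 2 and 0 at an unadjusted p under 0.05, where 17.04% and 22.9% of all probe sets passed. The LH effect differed for none (0.00%), with 1 at an unadjusted p under 0.05 (9.31% of all probe sets). The largest difference before LH was that of TNFAIP6, -1.29 ± 0.42 (95% interval -2.21 to -0.38, adjusted p = 0.138), with -1.82, -1.07 and -0.97 in cows D, F and G. Without cow G both TNFAIP6 probe sets were called (-1.45, adjusted p = 0.0353, and -1.28, adjusted p = 0.0433). After LH the TNFAIP6 difference was 0.09 (-0.82 to 1.01), but both groups then lay 0.06 to 0.32 under the brightest value of their arrays, so that a difference could be hidden.

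**Figure D3:**
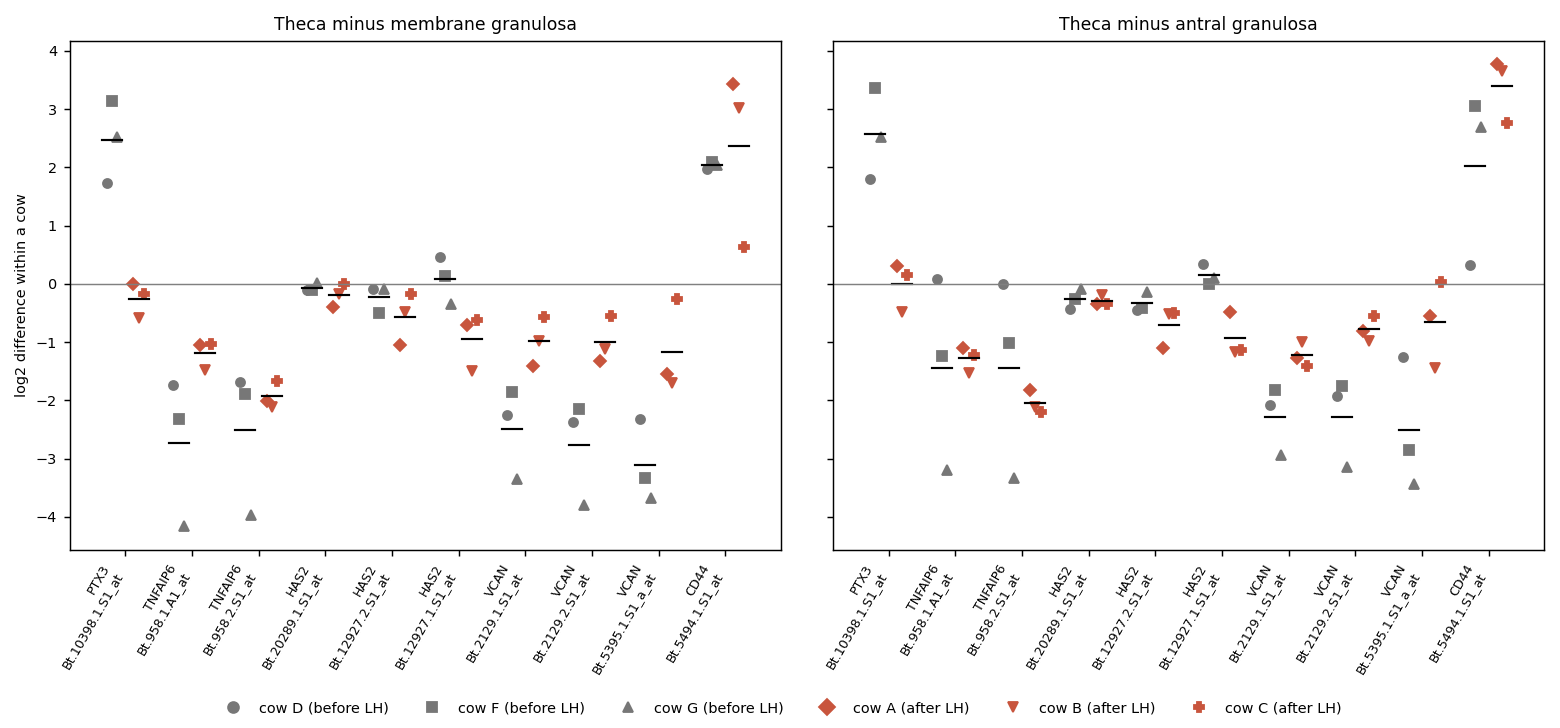
Within-cow log2 differences, theca less membrane granulosa (left) and theca less antral granulosa (right), for each probe set. Grey symbols are cows before LH, red symbols cows after LH, and short lines the means of 3 cows. PTX3 differences as measured, from granulosa arrays that all lay under 4.62 before LH, are above 1.7 before LH and between -0.58 and 0.30 after, and the means of the VCAN differences lie nearer to 0 after LH.

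The levels of each gene were ordered over the 6 groups. PTX3 was highest in the 3 groups after LH, whose neighbours overlapped, followed by theca before LH and then granulosa before LH, each step without overlap. By Bt.958.1.A1_at, TNFAIP6 was highest in antral and membrane granulosa after LH, which overlapped, then in theca after LH and in membrane granulosa, antral granulosa and theca before LH, each neighbouring pair of which overlapped. Bt.958.2.S1_at gave the same order, but there theca after LH did not overlap membrane granulosa before LH. VCAN was highest in membrane and antral granulosa before LH, and by Bt.2129.1.S1_at the 4 lower groups each overlapped the next. CD44 was highest in theca after LH, then in theca before LH, and all neighbours overlapped.

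The genes whose main probe sets were most like those of the members were found by Pearson's r over the 18 arrays among 7524 genes above the limit. The arrays come from 6 cows and 6 groups, so the points are not independent, and r is a description. For PTX3 they were C5H12orf75 (r = 0.99), TSPO (0.98), ASAH1 (0.98), FOS (0.98) and POSTN (0.97). For TNFAIP6 they were CTTN (0.91), SYT1 (0.91), AMIGO2 (0.91), RBM24 (0.90) and NMI (0.89). For VCAN they were SERPINE2 (0.97), MARCHF6 (0.96), FSHR (0.95), TAFAZZIN (0.94) and HACL1 (0.94), of which SERPINE2 and FSHR are on the granulosa marker list. For CD44 they were FGL2 (0.95), KLF4 (0.95), S100A4 (0.94), GADD45A (0.94) and CLIC2 (0.94). For HAS2 by its brightest probe set they were HMGN1 (0.91), YJU2B (0.89), ANP32A (0.89), TCEA2 (0.87) and KAT8 (0.85).

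Other genes of the pathway were counted from fixed lists, reading each gene from its brightest probe set. The counts of every list are to be set beside the shares of all probe sets called higher and lower. These were 10.0% and 10.9% in membrane granulosa, 10.3% and 12.2% in antral granulosa, and 1.79% and 2.12% in theca. Of 22 genes of hyaluronan synthesis and breakdown 16 were measured. Higher and lower calls were 3 and 1 in membrane granulosa, 3 and 2 in antral granulosa and 1 and 0 in theca. The median changes were -0.10, 0.01 and 0.21, beside -0.05, -0.01 and 0.00 over all probe sets. The latter include the dimmer probe sets of each gene and those without a symbol, so the medians are of unlike sets. GUSB, a lysosomal enzyme of glycosaminoglycan breakdown, rose by 2.48 ± 0.24 (adjusted p = 2.02e-06), 2.87 ± 0.24 (adjusted p = 3.51e-07) and 1.14 ± 0.24 (adjusted p = 0.0117). Its theca call ended without cow D (adjusted p = 0.0622) or cow F (adjusted p = 0.0637).

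UGP2 and UAP1, enzymes that supply nucleotide sugars, were the other rises of this list in both granulosa populations. UGP2 rose by 0.70 ± 0.14 in membrane granulosa (adjusted p = 0.00221) and by 0.55 ± 0.14 in antral granulosa (adjusted p = 0.0109, and 0.0508 without cow A). GNPNAT1, of glucosamine metabolism, fell in antral granulosa by 0.99 (SE 0.25, adjusted p = 0.00931). HYAL3, of the hyaluronidase family, fell in membrane granulosa by 0.52 (SE 0.13, adjusted p = 0.00906). That call ended without cow A, B or G (adjusted p = 0.0615, 0.0562 and 0.0523). The median of this list in antral granulosa lay near 0.

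Of 27 hyaluronan-binding, link and inter-alpha-trypsin inhibitor genes 21 were measured, and few were called: 1 higher and 2 lower in membrane granulosa, 0 and 1 in antral granulosa, and none in theca by limma. At an unadjusted p under 0.05, 2 were higher and 2 lower in antral granulosa, and 1 was higher and 2 lower in theca. Of all probe sets 32.5% and 15.4% passed that threshold in either direction there. The medians were -0.03, -0.02 and 0.10. HMMR, a hyaluronan receptor that also works in the mitotic spindle, fell by 3.00 in membrane granulosa (SE 0.27, adjusted p = 1.40e-06) and by 3.03 in antral granulosa (SE 0.27, adjusted p = 8.32e-07). In theca it read -0.78 (adjusted p = 0.150). The link protein HAPLN3 fell in membrane granulosa by 0.86 (SE 0.15, adjusted p = 0.000729). LYVE1, a hyaluronan receptor of lymphatic endothelium and some macrophages, rose by at least 2.36 in membrane granulosa (adjusted p = 0.0203). Its call ended without cow C (adjusted p = 0.0942) or cow F (adjusted p = 0.0677), and its other probe set was not called (1.45, adjusted p = 0.0775).

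Of 21 versican-cleaving proteases and partners of versican or CD44, 15 were measured. Higher and lower calls were 7 and 1 in membrane granulosa, 7 and 2 in antral granulosa, and 4 and 0 in theca, with medians of 0.77, 0.10 and 0.64. ADAMTS1, a protease that cleaves versican, rose by 3.09 ± 0.32 in membrane granulosa (adjusted p = 4.64e-06) and by 4.83 ± 0.32 in antral granulosa (adjusted p = 4.49e-08). In theca it read 1.17 ± 0.32 (adjusted p = 0.0568), while its other probe set was called there (1.55, adjusted p = 0.0173). The matrix protein TNC rose by 5.40 ± 0.41 in membrane granulosa (adjusted p = 2.65e-07), by at least 5.47 in antral granulosa (adjusted p = 7.54e-08) and by 1.74 ± 0.41 in theca (adjusted p = 0.0268). Its theca call ended without cow C, D or G (adjusted p = 0.0881, 0.190 and 0.0949), and its other, dimmer probe set was called in none (0.02, 0.41 and 0.22).

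FN1, fibronectin, rose by 1.41 ± 0.30 in membrane granulosa (adjusted p = 0.00325) and by 3.76 ± 0.30 in antral granulosa (adjusted p = 2.94e-07), and read 0.52 in theca (adjusted p = 0.471). Its other probe set was called lower in membrane granulosa (adjusted p = 0.0447), but lay under the limit in every group, so no size is given. RDX, which links CD44 to actin, rose by 0.97 ± 0.15 (adjusted p = 0.000164) and 1.42 ± 0.15 (adjusted p = 3.07e-06) in membrane and antral granulosa, and read 0.11 in theca (adjusted p = 0.824). The related linkers EZR and MSN and the matrix protein FBLN1 were the other rises in granulosa. The theca rises were TNC, FBLN1, MMP14 and SELP.

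Of 16 pentraxins and partners of PTX3 9 were measured and none was called in any population by limma. The medians were 0.39, 0.19 and 0.00. At an unadjusted p under 0.05, 4 of the 9 were higher in membrane granulosa, where 31.6% of all probe sets passed in either direction, and 0 passed in antral granulosa or theca. With only the 6 membrane granulosa arrays fitted, 3 were called higher there.

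Of 22 inducers of cumulus expansion 17 were measured. Higher and lower calls were 3 and 2 in each granulosa population and 3 and 1 in theca, with medians of 0.03, 0.14 and 0.18. Of all probe sets 10.0% and 10.9% were called in membrane granulosa, 10.3% and 12.2% in antral granulosa, and 1.79% and 2.12% in theca. PTGS2, which makes prostaglandin precursors, rose by at least 7.30 in membrane granulosa (adjusted p = 1.31e-07), by at least 7.44 in antral granulosa (adjusted p = 1.05e-07) and by at least 4.70 in theca (adjusted p = 0.000135). PTGES, the prostaglandin E synthase, rose by 5.45 ± 0.52 (adjusted p = 2.26e-06), 4.004 ± 0.52 (adjusted p = 3.63e-05) and 2.08 ± 0.52 (adjusted p = 0.0368). Its theca call was lost with each cow but C left out (adjusted p 0.0508 to 0.196).

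LHCGR, the LH receptor, fell by 4.10 in membrane granulosa (SE 0.35, adjusted p = 6.81e-07), by 2.98 in antral granulosa (adjusted p = 1.09e-05) and by 2.88 in theca (adjusted p = 0.000185). EGFR, the receptor of epidermal growth factor, fell by at least 0.70 in membrane granulosa (adjusted p = 0.000838) and by at least 0.57 in antral granulosa (adjusted p = 0.00138). In theca EGFR lay under the limit in both groups. Its other probe set lay under the limit in every group and was not called. All these comparisons share the cows and arrays of the member comparisons, so the lists and the members are not independent.

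**Figure D4:**
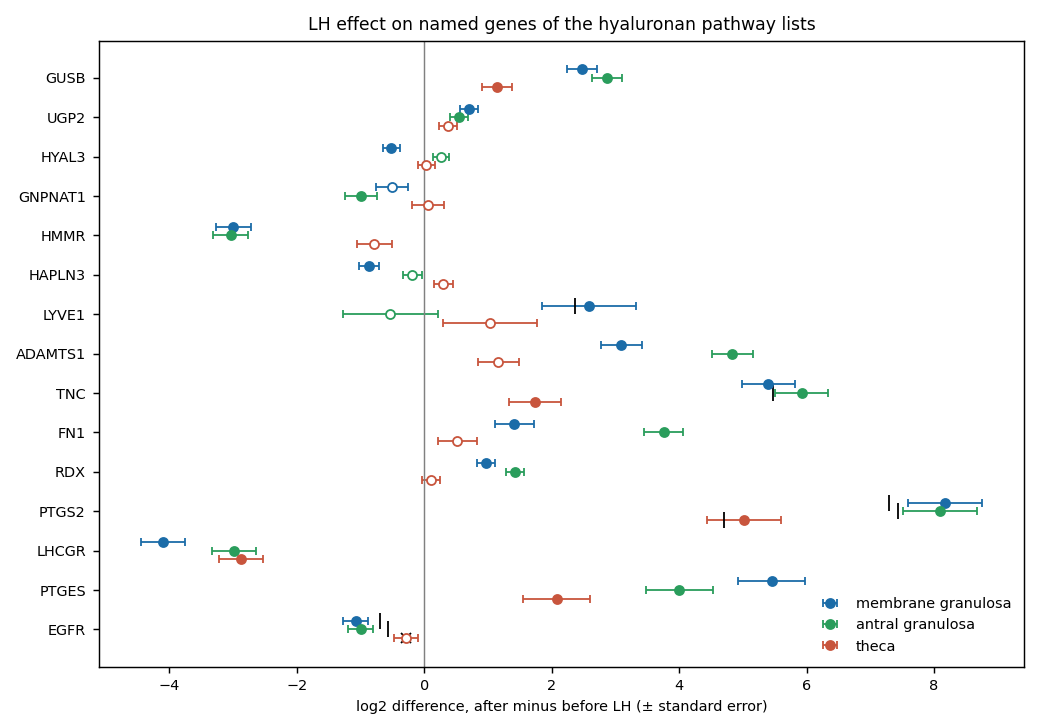
LH effect on the 15 named genes of the pathway lists, as the log2 difference after less before LH ± its standard error in the 3 populations (n = 3 cows a group). Filled points passed the test, short black ticks mark the bound where a group lay below 4.62, and a cross marks values with both groups below it. PTGS2, TNC, ADAMTS1 and GUSB lie to the right of 0 and HMMR and LHCGR to the left in both granulosa populations.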

How the data were processed

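RNA was extracted with Trizol and put on Affymetrix 3' expression arrays, per the labels' protocols. The authors deposited log2 signals per probe set, made with RMA in Partek 6.5 per the submitters' processing notes; the settings are not given in the sources used here. The 18 arrays had medians of 5.74 to 5.86, with correlations of 0.97 to 0.99 within groups. Their number limits the precision.

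Of 24128 entries 112 controls were left out. In the platform's annotation, which can be old, 13292 probe sets carry 1 symbol, 86 several and 10638 none. A gene's main probe set is the one with the highest mean.

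Fits used limma 3.58.1 in R 4.3.3 (lmFit, eBayes) and were tested on simulated data. The simulation had weak cow effects and no floor or ceiling of signal, so it could not check strong likeness of same-cow arrays or compressed values. LH effects used 6 group means without a block. Contrasts of populations, and differences in LH effect, had the cow as a fixed block: same-cow arrays, named in the titles, deviated together at -0.02 to 0.69, with 17 of 18 pairs over 0.1.

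All member probe sets were reported. Named pathway genes are up to 4 per list with the smallest adjusted p in an LH contrast; others named were chosen after their values were seen. Members and lists were chosen with earlier results of these data known. Figures used matplotlib 3.10.9. No sequence was used here.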

Additional observations from a re-analysis of the deposited data

Results flagged for a closer look

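The LH effect differed between theca and granulosa, by the interaction test of limma with the cow as a block, for 9 combinations of member probe set and contrast. For PTX3 the difference was -2.72 against membrane granulosa and -2.58 against antral granulosa, or -2.04 and -1.79 with dim groups at the limit of 4.62. For HAS2 by Bt.12927.1.S1_at it was -1.03 (adjusted p = 0.0422) and -1.07 (adjusted p = 0.0289), or -0.67 and -0.65 with dim groups at the limit. For VCAN it was 1.50 against membrane granulosa by Bt.2129.1.S1_at, 1.77 and 1.50 by Bt.2129.2.S1_at, and 1.94 and 1.85 by Bt.5395.1.S1_a_at. A positive value means that the fall in theca was smaller or not seen.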

How the results depend on the processing

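The alternatives were quantile normalization, centring on the array median, leaving out the 8005 dimmest probe sets, eBayes with trend and robust, only the 6 arrays compared, a replicate block or a random cow block (LH effects), no replicate block (within-cow contrasts), and each cow left out. Of the LH effects 118 of 129 values in antral granulosa, 122 of 129 in membrane granulosa and 110 of 117 in theca kept their direction and side of the threshold. A replicate number stands for other cows before than after LH, and deviations of same-numbered arrays correlated at -0.17 to 0.23, so the numbers do not pair the samples. With that replicate block the VCAN changes in membrane granulosa kept their size (-1.998 and -1.93 for Bt.2129.1.S1_at and Bt.2129.2.S1_at) but were not called (adjusted p = 0.0862 and 0.0793). No replicate block, that is no cow block, left 4 of 7 member calls for theca against membrane granulosa after LH, 4 of 7 against antral granulosa after LH, and 1 each of the 5 and 4 called differences in LH effect, those of PTX3.

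TNFAIP6 in membrane granulosa (1.72, Bt.958.1.A1_at) was called without the 8005 dimmest probe sets (adjusted p = 0.0437) and with a random cow block (adjusted p = 0.0447). HAS2 by Bt.12927.2.S1_at in antral granulosa was called after quantile normalization (0.50, adjusted p = 0.0293). The difference in LH effect on HAS2 by Bt.12927.1.S1_at against membrane granulosa was lost after median centring (adjusted p = 0.0536), and that on VCAN by Bt.5395.1.S1_a_at against antral granulosa with trend and robust (adjusted p = 0.0526). No scaling moved the median of all probe sets by over 0.1.

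With each cow left out, values that changed sign, lost or gained a call, or moved by over 1.5 times included the following. TNFAIP6 by Bt.958.1.A1_at was 1.08 to 2.20 in membrane granulosa and 2.84 to 3.94 in theca, and its difference in LH effect between theca and antral granulosa was -0.70 to 0.94. By Bt.958.2.S1_at that difference was -1.54 to 0.13, that between theca and membrane granulosa -0.14 to 0.99, and antral less membrane granulosa after LH -0.10 to 0.26. HAS2 by Bt.12927.2.S1_at was 0.30 to 0.56 in membrane granulosa and -0.042 to 0.20 in theca. HAS2 by Bt.20289.1.S1_at was -0.15 to 0.23, -0.17 to 0.021 and -0.26 to 0.0070 in membrane granulosa, antral granulosa and theca, and its difference between theca and antral granulosa -0.13 to 0.045. VCAN in antral granulosa was -1.77 to -1.21, -1.97 to -1.18 and -2.28 to -1.47 by its 3 probe sets, and in theca -0.83 to -0.060 (Bt.2129.1.S1_at), -0.50 to 0.20 (Bt.2129.2.S1_at) and -0.43 to 0.36 (Bt.5395.1.S1_a_at). CD44 in antral granulosa was -0.48 to 0.40, in membrane granulosa 0.42 to 1.32, and its difference in LH effect -0.20 to 1.19 between theca and membrane granulosa and 0.52 to 1.89 between theca and antral granulosa. PTX3 in theca less antral granulosa after LH was -0.17 to 0.23. Counts of members called were 4 to 7 for LH in antral granulosa and 0 to 2 for antral less membrane granulosa before LH. For theca they were 0 to 8 against membrane granulosa after LH, 4 to 7 against antral granulosa at each time, and 2 to 5 and 1 to 3 for the differences in LH effect against membrane and antral granulosa. Sign changes affected uncalled values only.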
